A study of Mus musculus with 36 samples.

Results

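The genes described here are 10 transcription regulators of oxidative metabolism, chosen by their symbols in the count table, in which they are 10 of 46893 features. They are the coactivators Ppargc1a and Ppargc1b (PGC-1α and PGC-1β), the estrogen-related receptors Esrra, Esrrb and Esrrg, the peroxisome proliferator-activated receptors Ppara and Ppard, the nuclear respiratory factor Nrf1, the mitochondrial transcription factor Tfam, and Perm1, a muscle regulator induced by PGC-1 and ERR. All 10 passed the minimum mean count of 25 in every fit. The rule that picks them uses the symbols and no measured value, though the set was drawn up with earlier results of these data known.

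PGC-1 proteins do not bind DNA themselves. They are recruited by DNA-bound partners, among them the ERRs, the PPARs and NRF1, and raise transcription of genes for respiration and fatty acid oxidation. ERRs are orphan receptors that bind a short site alone or as pairs, PPARs bind DNA with a retinoid X receptor and respond to fatty acids, NRF1 acts on nuclear genes of the respiratory chain, and TFAM is carried into mitochondria, where it packs and transcribes mitochondrial DNA. In skeletal muscle these regulators are best known for the oxidative fibres and for the response to endurance exercise.

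RNA of the gastrocnemius, a mainly fast calf muscle, was sequenced from 36 wild-type male C57BL/6 mice, with 1 library per mouse and 6 mice per group. The mice were 3 to 4 weeks old on arrival. All groups kept their diet for 12 weeks. NFD-C mice were sedentary on the diet with 16% of its energy from fat, and HFD-C mice were sedentary on the diet with 45%. The remaining groups ate the diet with 45% and ran daily. The running wheel was locked past a daily limit of 2.1 km for HFD-25%, 4.2 km for HFD-50% and 6.3 km for HFD-75%, while HFD-U mice had no limit and averaged 8.3 km. The muscle was taken whole, so a change in the share of a fibre or cell type and a change of RNA per cell cannot be told apart.

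Library totals were 13060090 to 27981702 counts. The 8 skeletal muscle markers (Myh4, Acta1, Ckm and others) were abundant in every library, while the slow fibre markers ranged widely, with Myh7, the slow myosin, at 0 in 2 libraries and at up to 747 CPM, a count scaled to a common library size. Features linked to ribosomal RNA took up a share of 2.01 to 3.80% of counts in NFD-C and in HFD-C replicates 1 to 4, but 0.404 to 1.02% in HFD-C replicates 5 and 6 and in all 24 running mice. For several genes and lists, results against HFD-C are therefore also given for the libraries with a low share, which leave 2 HFD-C mice and no NFD-C mouse.

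Promoter windows from RefSeq (build GRCm38.p6, 250 bases before to 50 after an annotated start) were listed for 9 of the 10 genes, in 14 windows. They were searched on both strands for the ERR site AAGGTCA and its longer form TNAAGGTCA, which contains it, for the NRF1 core (GCGCA, any base, GCGC), and for the cAMP response element TGACGTCA and its shorter form TGACG, which the full element contains. Stretches around a match are shown for a gene of the correlated set described below, a PPAR and the coactivator that cAMP signalling is known to induce. The Perm1 stretch, chr4:156215685-156215771 on the + strand, holds the ERR site on its opposite strand. The Ppara stretch, chr15:85735705-85735775 on the + strand, holds the NRF1 core, which reads on both strands. The Ppargc1a stretch, chr5:51567730-51567814 on the - strand, holds the shorter element on its opposite strand. Capitals mark the match, and each is written 5′ to 3′ on the strand of the gene.
Perm1: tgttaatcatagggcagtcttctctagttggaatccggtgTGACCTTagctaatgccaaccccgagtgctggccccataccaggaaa
Ppara: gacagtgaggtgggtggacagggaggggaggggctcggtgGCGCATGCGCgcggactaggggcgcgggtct
Ppargc1a: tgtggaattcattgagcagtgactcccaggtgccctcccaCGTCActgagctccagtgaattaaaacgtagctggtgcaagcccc
The match in Perm1 was the only ERR site among the 14 windows, and 4.72% of all 32851 windows held one. The longer ERR form was in 0 of the 14 and in 1.28% of all windows. The NRF1 core was in the Ppara window alone, against 4.60% of all windows. TGACG was in 4 of the 14 windows, against 20.8% of all, and the full element in 0, against 1.79%. These matches are descriptions of the letters in the windows and not binding sites. Positions of whole genes below are on GRCm39, the build of the count table.

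Levels between genes were compared per length, as CPM per kilobase of the gene (FPKM). Perm1 and Esrra were the most abundant, with 35.1 ± 16.5 and 35.0 ± 7.71 FPKM (SD over 36 mice), and they cannot be ordered, since Perm1 exceeded Esrra in 14 of 36 mice. Tfam followed with 9.31 ± 1.08 FPKM and Ppard with 6.80 ± 1.34 FPKM, and each stood above the next gene in 35 or 36 of 36 mice. Ppargc1a, Esrrg and Ppara formed the next step, with 2.19 ± 0.533, 2.17 ± 1.88 and 1.82 ± 1.60 FPKM. Their order changed from mouse to mouse, Ppargc1a being above Esrrg in 24 mice and Esrrg above Ppara in 25. Esrrb had 1.22 ± 0.975 FPKM, Nrf1 0.794 ± 0.132 FPKM and Ppargc1b 0.725 ± 0.464 FPKM. Esrrb exceeded Nrf1 in 21 of 36 mice and Nrf1 exceeded Ppargc1b in 23. Among the 10 genes, the less abundant paralog was thus Ppargc1b of the coactivators, Esrrb of the ERRs and Ppara of the PPARs. Family members outside the 10 were not compared. Ranked by CPM without the length, 6 of the 10 genes take another place.

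**Figure D1:**
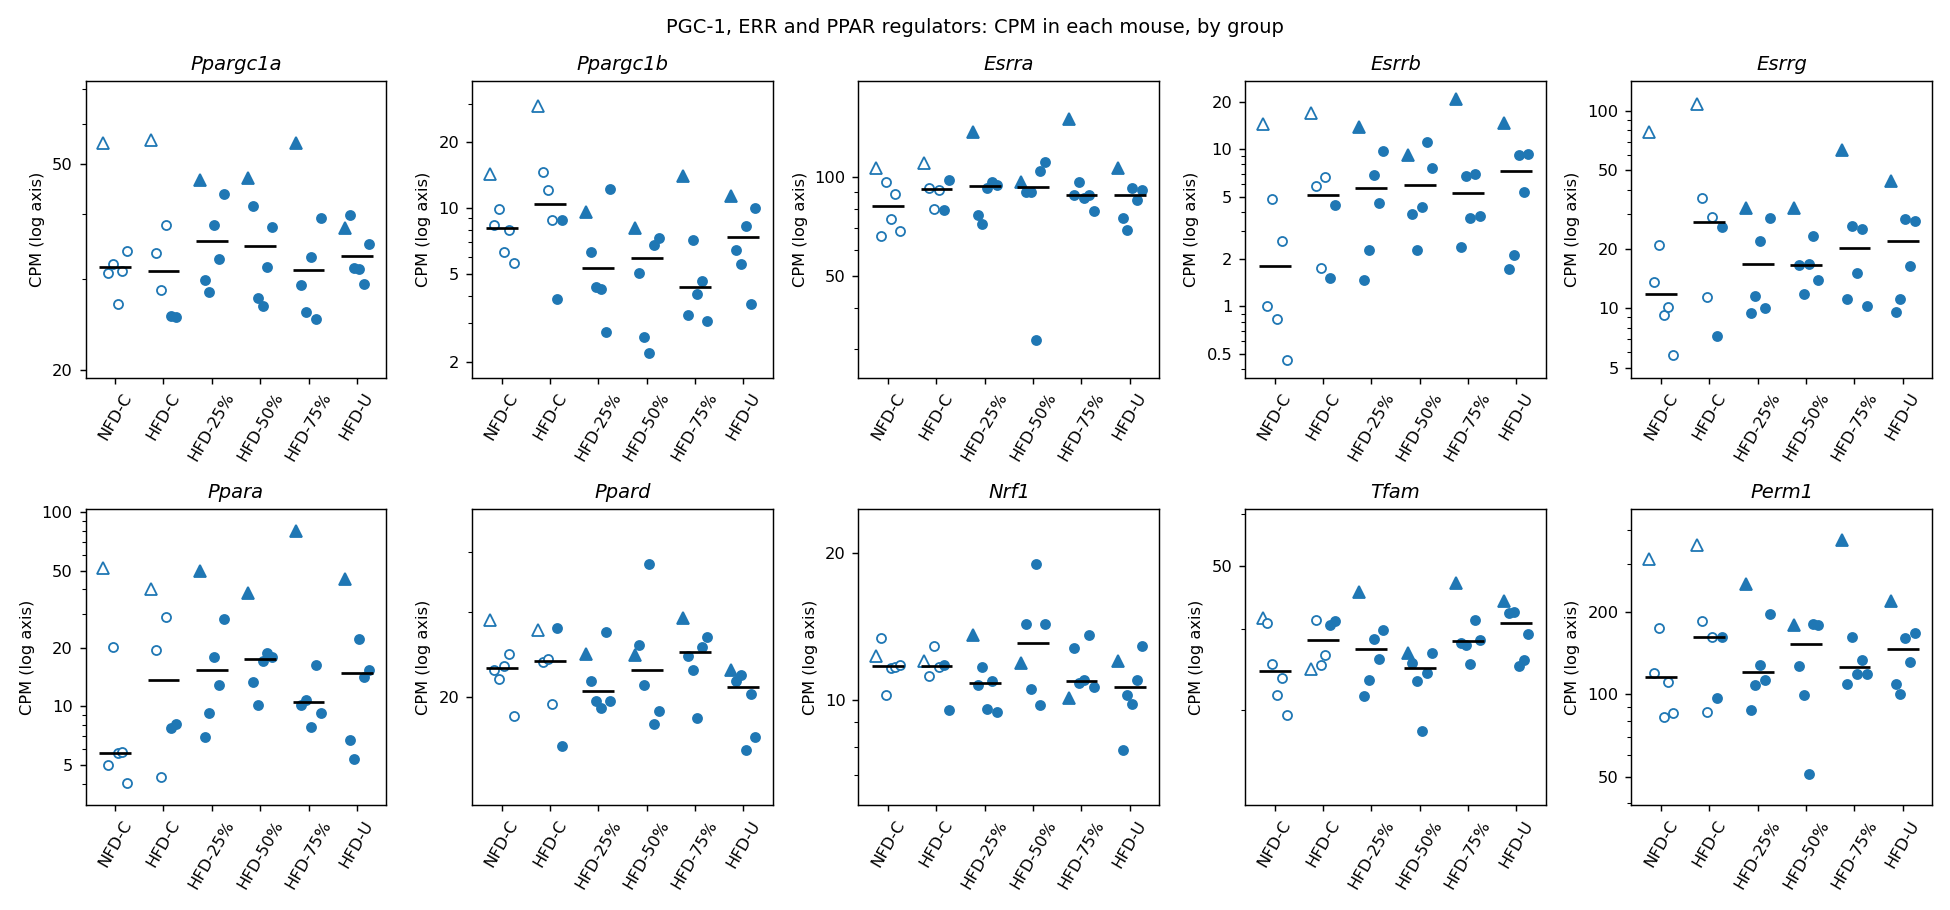
CPM of each gene in each mouse (log axes), with triangles for the mouse numbered 1 of each group, circles for mice 2 to 6, open symbols for libraries with a high ribosomal RNA-linked share and bars for group medians. Groups overlap for every gene, Ppargc1b is highest in HFD-C (3.86 to 29.3 CPM), and triangles lead most groups for Esrrg, Ppara, Esrrb and Perm1.

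Running at each distance was compared with HFD-C to ask whether daily distance changed these regulators under the high-fat diet. Ppargc1b, the coactivator linked to mitochondrial and lipid gene expression (gene ID 170826, chromosome 18), had lower means in the running groups, and it was the only gene of the 10 with an unadjusted p of at most 0.05 in any of the 4 comparisons. After adjustment over all genes tested no regulator passed, with edgeR's quasi-likelihood test and Benjamini-Hochberg adjustment. In HFD-C, Ppargc1b had 29.3, 14.6, 12.1, 8.89, 3.86 and 8.86 CPM in replicates 1 to 6. In HFD-50% it had 8.14, 5.09, 2.59, 2.20, 6.84 and 7.37 CPM. The highest HFD-50% mouse lay below 5 of the 6 HFD-C mice, and HFD-C replicate 5 lay inside the HFD-50% range. The lowest, median and highest values were 2.72, 5.34 and 12.2 CPM in HFD-25%, 3.08, 4.39 and 14 CPM in HFD-75%, 3.66, 7.40 and 11.4 CPM in HFD-U, and 5.65, 8.16 and 14.4 CPM in NFD-C. All of these ranges overlapped that of HFD-C, and HFD-C replicate 1 stood above every other mouse of the study.

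The log2 fold change of Ppargc1b was -1.27 in HFD-50% (standard error 0.42, 95% interval -2.16 to -0.39, adjusted p = 0.282). It was -0.99 ± 0.42 in HFD-25% (standard error, adjusted p = 0.683), -1.10 ± 0.44 for the 75% group (adjusted p = 0.825) and -0.77 ± 0.38 without a limit (adjusted p = 0.924). These comparisons share the HFD-C mice. At the unadjusted threshold, 6.98% of all genes tested differed in HFD-25%, 10.7% for the 50% group, 5.47% for the 75% group and 5.46% in HFD-U, so 1 gene of 10, or 0 in HFD-U, is near the background. With adjustment the background was 0.0082%, 0%, 0% and 0%. In HFD-U and HFD-C, where same-numbered mice deviated together, adding the mouse number as a replicate block gave Ppargc1b -0.64 ± 0.22 (adjusted p = 0.374), which is 1 of 10 genes past the unadjusted threshold in place of 0. With that block 10.2% of all genes were past it, so 1 of 10 is again near the background.

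Within HFD-C, Ppargc1b tended to be higher where the ribosomal RNA-linked share was high, though this sets 4 mice against 2 whose values nearly touch. The 4 HFD-C libraries with a high share had 8.89 to 29.3 CPM, and the 2 with a low share had 3.86 and 8.86 CPM, inside the range of 2.20 to 14 CPM of the running mice. Among low-share libraries its log2 fold changes were 0.06, -0.23, -0.06 and 0.26 in order of distance, with adjusted p of 0.816 to 0.98. The NFD-C libraries, all with a high share, had a mean of 8.78 ± 3.15 CPM (SD, n = 6) against 12.9 ± 8.81 CPM in HFD-C. Their range of 5.65 to 14.4 CPM lay mostly inside that of the running mice. The part of the library share in the lower Ppargc1b of running mice was not tested. Without HFD-C replicate 1 the log2 fold changes were -0.56, -0.85 and -0.68 for the groups with a limit (adjusted p of 0.793, 0.488 and 0.901), and of these only that of HFD-50% stayed past the unadjusted threshold.

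Ppargc1a, the coactivator induced by acute exercise (gene ID 19017, GRCm39 chr5:51611591-52273337, - strand), had nearly equal group means, from 34.1 ± 4.10 CPM in HFD-U to 36.6 ± 7.54 CPM in HFD-25% (SD, n = 6), with 34.5 ± 11.6 CPM in HFD-C and 35.0 ± 10.1 CPM in NFD-C. Its log2 fold changes against HFD-C lay between -0.01 and 0.08 in the running groups, and the widest limits of their 95% intervals were -0.46 and 0.50. The lowest, median and highest values were 25.3, 31.1 and 55.8 CPM in HFD-C and 25.1, 33 and 55 CPM in the 24 running mice. Both ranges are nearly the same. The 2 HFD-C libraries with a low share, however, had 25.4 and 25.3 CPM. Against those 2 mice alone, Ppargc1a had log2 fold changes of 0.54, 0.49, 0.45 and 0.43 in order of distance (adjusted p of 0.384, 0.541, 0.61 and 0.343), and the first and last were past the unadjusted threshold, as were 11.6% and 11.8% of all genes in those fits.

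Among the ERRs, Esrrg had lower means in the running groups than in HFD-C, which rested mostly on 1 HFD-C mouse, and no ERR passed the unadjusted threshold in any running group. Esrrg, enriched in oxidative and slow muscle (gene ID 26381, chr1:187340707-187947082, + strand), ranged from 7.23 to 109 CPM in HFD-C with a median of 27.3 CPM, and from 9.53 to 63.5 CPM in the running mice with a median of 16.6 CPM. The running mice lay inside the HFD-C range. Its log2 fold changes were -0.95, -0.92, -0.52 and -0.66 in order of distance, with adjusted p of 0.519 to 0.999. Without HFD-C replicate 1 they were -0.21, -0.20, 0.21 and 0.07, and among low-share libraries 0.22, 0.24, 0.63 and 0.48. Esrra, the most abundant ERR and itself a PGC-1 target (gene ID 26379, chr19:6888345-6899416, - strand), had group means of 83.4 to 97.9 CPM, and its log2 fold changes in the running groups lay between -0.08 and 0.10. One mouse, HFD-50% replicate 4, had 31.9 CPM of Esrra where the other 5 of its group had 89.6 to 111 CPM. Esrrb, the least abundant ERR (gene ID 26380, chr12:86407891-86568402, + strand), was the most variable gene of the 10, with 0.458 CPM in one NFD-C mouse and 20.9 CPM in one HFD-75% mouse. Its log2 fold changes were 0.04 to 0.26 in the running groups, with interval limits as wide as -1.17 and 1.48, so differences of 2-fold in either direction are inside the error. The 2 HFD-C libraries with a low share had 1.51 and 4.39 CPM of Esrrb. Under other settings, among them covariates and subsets of libraries, its log2 fold changes were at most 1.31, 1.14, 1.54 and 1.60 in order of distance. At the lowest they were 0.04, -0.27, 0.23 and 0.18.

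The PPARs showed the same contrast of a variable and a steady member. Ppara, which drives fatty acid oxidation genes (gene ID 19013, chr15:85619112-85691052, + strand), had lowest, median and highest values of 4.34, 13.8 and 40.3 CPM in HFD-C, and of 5.37, 14.8 and 80.1 CPM in the running mice. All running mice but 3 lay inside the HFD-C range, and the log2 fold changes of 0.00 to 0.31 had interval limits as wide as -1.01 and 1.63. Ppard, the PPAR with the higher level per length here and known to induce oxidative genes in muscle (gene ID 19015, chr17:28451657-28520446, + strand), had group means of 19.8 to 24.4 CPM and log2 fold changes of -0.22 to 0.09 against HFD-C. Its intervals were narrow, within -0.53 and 0.49.

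Nrf1 and Tfam, which act on nuclear and mitochondrial genes of the respiratory chain, were the steadiest. Nrf1 (gene ID 18181, chr6:30047984-30153457, + strand) had group means between 10.6 ± 1.77 CPM in HFD-U and 13.3 ± 3.37 CPM in HFD-50% (SD, n = 6), and Tfam (gene ID 21780, chr10:71061298-71074157, - strand) between 34.1 ± 3.28 CPM in HFD-50% and 39.8 ± 3.76 CPM in HFD-U. Against HFD-C, the log2 fold changes in the running groups were -0.11 to 0.21 for Nrf1 and -0.16 to 0.06 for Tfam. Tfam intervals reached from -0.39 to 0.27 at the widest, so a change of 2-fold is outside all of them. Perm1, which links PGC-1 and ERR to muscle mitochondria (gene ID 74183, chr4:156287724-156305766, + strand), ranged from 86.3 to 352 CPM in HFD-C and from 51.0 to 368 CPM in the running mice. Its log2 fold changes were -0.35 to -0.03, with interval limits as wide as -1.06 and 0.70.

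**Figure D2:**
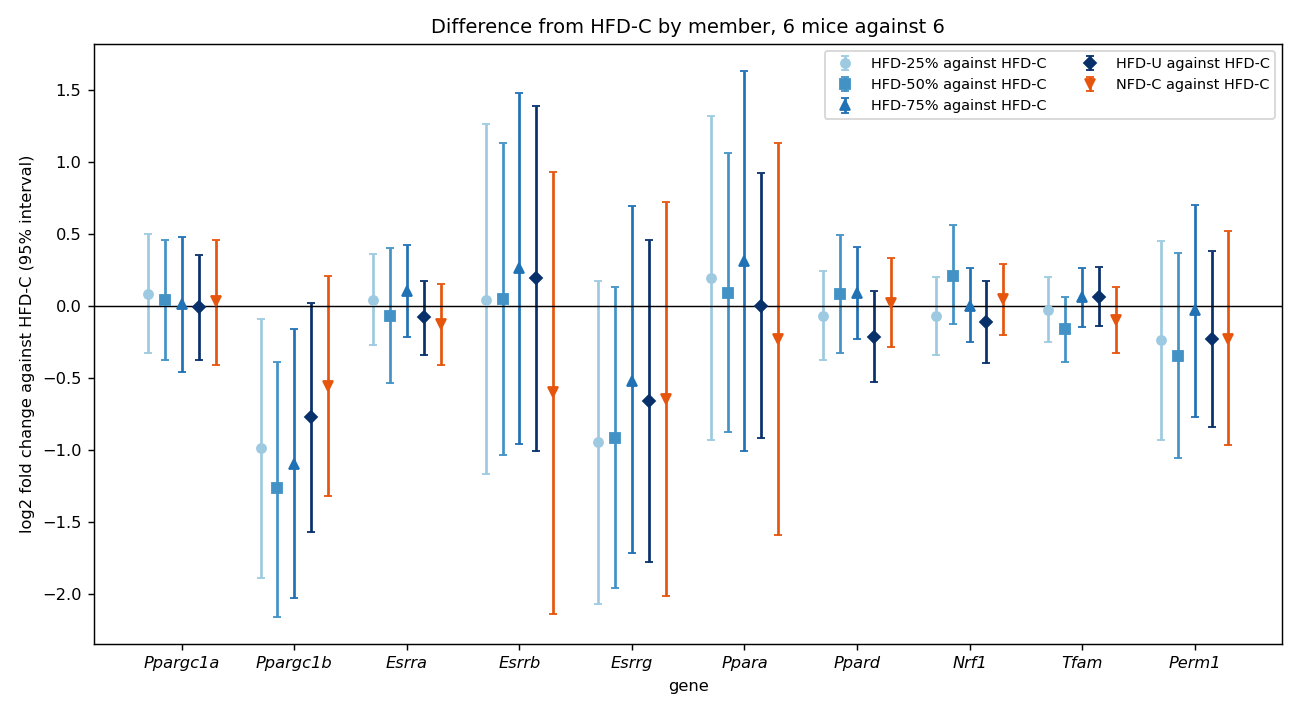
Log2 fold change against HFD-C with 95% intervals (edgeR, 6 mice against 6) for each gene, for the 4 running groups and NFD-C. Intervals of Ppargc1b exclude 0 for all running groups but HFD-U without adjustment for the number of genes, and those of Esrrb, Esrrg and Ppara are the widest.

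With all 24 running mice against the 6 HFD-C mice, the log2 fold change was -1.03 ± 0.30 for Ppargc1b (standard error, adjusted p = 0.162) and -0.76 ± 0.36 for Esrrg (adjusted p = 0.526). These are 2 of 10 genes past the unadjusted threshold, against a background of 9.27%, and 0 of 10 at an adjusted p, against 0.3%. The remaining 8 lay between -0.22 and 0.14. Among low-share libraries Ppargc1b was at 0.02 (adjusted p = 0.99), Esrrg at 0.40 (adjusted p = 0.796) and Ppargc1a at 0.48 (adjusted p = 0.35). Without HFD-C replicate 1, Ppargc1b was at -0.60 (adjusted p = 0.573) and Esrrg at -0.03 (adjusted p = 0.988), so the value of Esrrg rests on that mouse, which had 109 CPM where the other HFD-C mice had 7.23 to 36.4 CPM.

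The diets were compared in sedentary mice, NFD-C against HFD-C. None of the 10 genes reached an unadjusted p of at most 0.05, against a background of 4.12%, or an adjusted one, against 0%. This count rests on the mice numbered 1. Without NFD-C replicate 1, 3 of 10 were past the unadjusted threshold, with log2 fold changes of -1.70 for Esrrb, -1.60 for Esrrg and -1.17 for Ppara (adjusted p = 0.619, 0.552 and 0.765). Over all genes 784 were past it in that fit, beside 504 of 12247 with all 12 mice. Without HFD-C replicate 1, Esrrb, Esrrg and Ppara were at 0.02, 0.08 and 0.17. The median log2 fold change of the 10 was -0.18 in NFD-C, beside 0.00 over all genes. With all 12 mice the largest were -0.65 for Esrrg and -0.60 for Esrrb, and Ppara was at -0.23, all with intervals that reach above 0. Esrrb had a median of 1.80 CPM in NFD-C and 5.12 CPM in HFD-C, Ppara 5.76 and 13.8 CPM, and Esrrg 11.9 and 27.3 CPM, while the mouse numbered 1 reached 14.5, 51.8 and 78.2 CPM in NFD-C. The slow fibre markers moved with this difference. All 6 of the list were detected, and their summed level ranged from 8.60 to 1437 CPM in NFD-C with a median of 83.8 CPM, and from 99.8 to 1927 CPM in HFD-C with a median of 923 CPM. Their part in it was not tested.

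Between running groups, Tfam and Ppard were the genes past the unadjusted threshold. Tfam was lower in HFD-50%, with lowest, median and highest values of 27.9, 34.8 and 36.7 CPM, than in HFD-75% (35.3, 38.3 and 47.0 CPM) and HFD-U (35.1, 40.8 and 44.2 CPM). Both ranges touch that of HFD-50% only at its upper end. The log2 fold changes were -0.22 (adjusted p = 0.838) and -0.23 (adjusted p = 0.38), each with a standard error of 0.10. With the ribosomal RNA-linked share as a covariate they were -0.19 and -0.05, and with slow fibre markers that against HFD-U was -0.17, none of them past the unadjusted threshold. Ppard was higher in HFD-75% (18.1, 24.8 and 29.2 CPM) than in HFD-U (15.5, 21.0 and 22.8 CPM), by 0.30 ± 0.13 on the log2 scale (standard error, adjusted p = 0.843). In each of these 3 comparisons 1 of 10 genes was at the unadjusted p, with a background of 5.37% for HFD-50% against HFD-75%, 12.4% for HFD-50% against HFD-U and 5.57% for HFD-75% against HFD-U. The count was 0 of 10 for HFD-50% against HFD-25%, HFD-25% against HFD-U and HFD-25% against HFD-75%, with backgrounds of 2.69%, 5.1% and 3.12%. At an adjusted p the count was 0 of 10 in all 6, where the background was 0.00844% for HFD-50% against HFD-U and 0% for the others.

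A dose response on distance, linear plus quadratic, was fitted to the 30 mice fed the high-fat diet. Ppargc1b had an adjusted p of 0.168 and the remaining genes of 0.629 or more. Past the unadjusted threshold were 1 of 10 genes, Ppargc1b, against a background of 12.2%, and with adjustment 0 of 10 against 0.683%. Adding the mouse number as a replicate block changed that call, with an adjusted p of 0.0479 for Ppargc1b. The 12.2% and 0.683% are from the fit without the block, so this call has no background beside it. Over the 24 running mice alone Ppargc1b had an adjusted p of 0.878 and the smallest was 0.68, for Ppard. The count was 0 of 10 against 8.49%, and with adjustment 0 of 10 against 0.0419%. A difference among the 6 groups of any kind was past the unadjusted threshold for Ppargc1b alone (adjusted p = 0.348), against 12.2% of all genes, and with adjustment for 0 of 10 against 1.45%. Without HFD-C replicate 1 Ppargc1b was past it in neither fit (adjusted p = 0.491 and 0.693).

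Single mice differed far more than groups. The standard deviation within groups on the log2 scale was 1.28 for Esrrb, 1.15 for Ppara, 1.01 for Esrrg, 0.76 for Ppargc1b and 0.65 for Perm1, beside a median of 0.31 over all genes. A larger spread than that of Esrrb was seen in 0.597% of genes, than that of Ppara in 0.896% and than that of Esrrg in 1.56%. Esrra (0.37) and Ppargc1a (0.35) were near the middle, and Ppard (0.28), Nrf1 (0.22) and Tfam (0.16) below it, with 94.8% of genes more variable than Tfam. Between-group differences accounted for 1.56% of the variance of Ppargc1a, 3.50% of that of Perm1 and 5.72% of that of Esrrg. The median over all genes was 14.9%, and Ppargc1b (25.4%), Tfam (25.1%), Nrf1 (18.4%) and Esrrb (15.5%) lay above it. These shares are not corrected for the number of groups, so noise in the group means also raises them. In the edgeR test for any difference among the 6 groups, Ppargc1b, Tfam, Nrf1 and Esrrb had adjusted p of 0.348, 0.62, 0.684 and 0.966.

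The mouse numbered 1 often led its group. It was the highest of 6 mice in all 6 groups for Esrrg and Ppara, in 5 for Ppargc1a, Ppargc1b, Esrra, Esrrb, Tfam and Perm1, in 3 for Ppard and in 1 for Nrf1. Of 12053 genes, 8.45% had this mouse highest in at least 5 groups, and 8 of the 10 regulators did. Its level over the median of mice 2 to 6 had a median over groups of 4.41 for Ppara, 3.49 for Esrrg, 3.43 for Esrrb, 2.21 for Perm1 and 2 for Ppargc1b. For Ppard, Tfam and Nrf1 it was 1.18, 1.18 and 1.04. Beside these ratios, Myh2, the myosin of oxidative fast 2A fibres, was highest in mouse 1 in 6 of 6 groups with a median ratio of 3.09, and Myh4, the myosin of glycolytic 2B fibres, in 0 of 6 with 0.886. Myh1, the 2X myosin, was highest in mouse 1 in 4 groups, with a median ratio of 2.22. Myh7 was highest in mouse 1 in 1 group, with a median ratio of 3.87 that ran from 0.249 to 841 over groups. The slow fibre markers were highest in mouse 1 in 1 group, with a median ratio of 1.88 (0.21 to 50.6). The library total was so in 2 groups, with 1.06. What the numbers mark is not stated in the labels, and the part of each of these measures was not tested.

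HFD-50% replicate 4 stood apart in another way. It was the lowest of its group for Ppargc1a (26.6 CPM), Ppargc1b (2.20 CPM), Esrra (31.9 CPM), Tfam (27.9 CPM) and Perm1 (51.0 CPM), and the highest for Ppard (37.8 CPM) and Nrf1 (19.0 CPM). Esrrb, Esrrg and Ppara were inside the range of the other 5 mice.

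Across the 36 mice, with group means removed from log2 CPM, a set of 6 regulators varied together. These were Ppargc1b, Esrra, Esrrb, Esrrg, Ppara and Perm1, and their 15 pairs had Pearson's r from 0.54 to 0.92 and Spearman's rho from 0.60 to 0.93. The set was drawn from these same correlations, so high values within it follow in part from its choice. Of all 45 pairs of regulators, 29 had an adjusted p of at most 0.05 for r and 28 for rho (permutation of mice within groups, 100000 resamples, two-sided, Benjamini-Hochberg over 45 pairs). Esrrb and Ppara had r = 0.92 and rho = 0.93, and r = 0.90 without the 2 mice farthest from the median of Esrrb (permutation p = 1e-05 for r and rho over the 36 mice, the smallest that the resamples can give). Esrrb and Esrrg had r = 0.92 and rho = 0.92, and Esrrb and Perm1 r = 0.88 and rho = 0.92. Esrra and Perm1, the most abundant pair, had r = 0.84 and rho = 0.86.

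Tfam followed that set less closely, with r from 0.42 to 0.61 with its genes. Ppargc1a had r from 0.55 to 0.76 with them, inside the range within the set, which began at 0.54. The rho of Ppargc1a with them, 0.50 to 0.64, lay mostly under the lowest rho within the set, 0.60. Where the set ends was not tested. The 13 pairs that hold Ppargc1a or Tfam, apart from those with Ppard or Nrf1, had r from 0.42 to 0.76, and all 13 passed. Ppargc1a had r = 0.76 with Perm1 and r = 0.55 with Esrra, and with Ppargc1b, the other coactivator, r = 0.68 and rho = 0.61. Ppard and Nrf1 stood outside. Their 17 pairs had r from -0.34 to 0.44, and 1 of them passed, between Ppard and Nrf1, with r = 0.44 (permutation p = 0.0276, adjusted p = 0.0429), rho = 0.34 (adjusted p = 0.104) and r = 0.22 without the 2 farthest mice. That pair therefore rests on those mice.

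The correlations were recomputed for subsets of libraries. Among those with a low ribosomal RNA-linked share, 28 pairs passed, and the 15 pairs of the set had r from 0.52 to 0.92. Among mice numbered 2 to 6, 16 pairs passed, of which 14 were among the 29, and r in the set ran from 0.31 to 0.86. Esrrb with Ppara was at 0.86 there, Esrrb with Esrrg at 0.86 and Esrra with Perm1 at 0.80, and all 3 passed (permutation, adjusted p = 0.000112). None of the 9 pairs of Ppargc1a passed in mice 2 to 6. Ppard was negatively correlated with Esrra (r = -0.63, adjusted p = 0.0289) and Perm1 (r = -0.61, adjusted p = 0.0201) among these mice, but r was -0.35 and -0.46 without the 2 farthest mice and rho -0.41 and -0.53. With mice numbered 1 in and HFD-50% replicate 4 out, r was 0.19 for both.

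**Figure D3:**
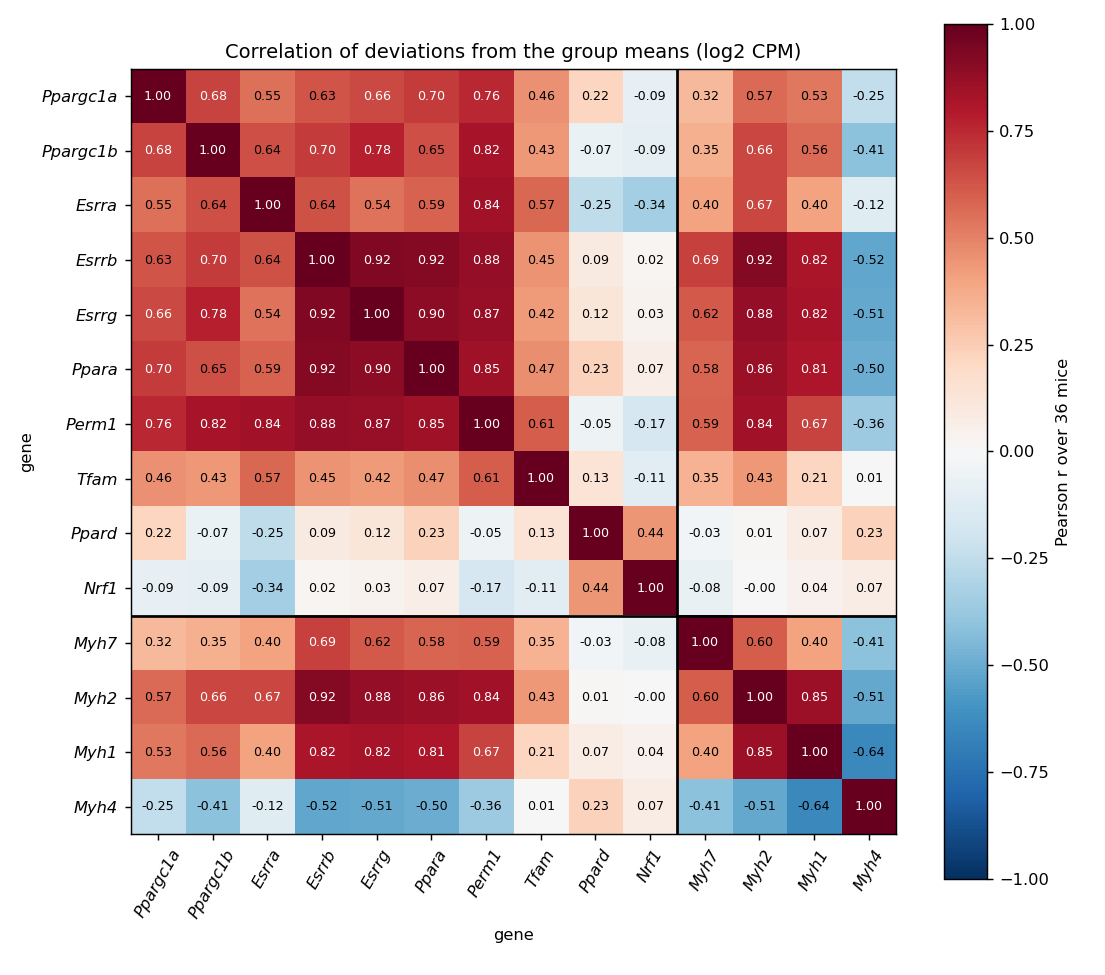
Pearson's r between genes over 36 mice, from log2 CPM minus the group mean, for the 10 regulators and, beyond the black lines, 4 adult myosin heavy chains. Ppargc1b, the ERRs, Ppara and Perm1 form a block of high values (0.54 to 0.92) that also holds for Myh2, and Ppard and Nrf1 lie between -0.34 and 0.23 with it.

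The set moved with the myosin of oxidative fast fibres. These 40 relations with 4 myosins were chosen after the values had been seen. Myh2 had r = 0.92 and rho = 0.91 with Esrrb, r = 0.88 with Esrrg, r = 0.86 with Ppara, r = 0.84 with Perm1, r = 0.67 with Esrra and r = 0.66 with Ppargc1b (permutation p = 1e-05, adjusted p = 4.44e-05 over 40 relations for each). For Esrrb and Myh2, r was 0.90 without the 2 farthest mice. Myh1, the 2X myosin, had r = 0.82 with Esrrb and Esrrg and 0.81 with Ppara, and Myh7 had r = 0.69, 0.62 and 0.58 with the same genes. Myh4 was negatively correlated with them, with r = -0.52, -0.51 and -0.50 (permutation, adjusted p = 0.00245, 0.00245 and 0.00486). Ppard and Nrf1 had r between -0.08 and 0.23 with all 4 myosins. With the part that follows Myh2 removed, 15 pairs of regulators passed, of which 14 were among the 29, and r in the set ran from -0.12 to 0.68. The r of Esrrb with Ppara was 0.62 then, that of Esrrb with Esrrg 0.61 and that of Ppargc1b with Perm1 0.65, all 3 past an adjusted p of 0.05. With the slow fibre markers removed instead, 26 pairs passed.

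**Figure D4:**
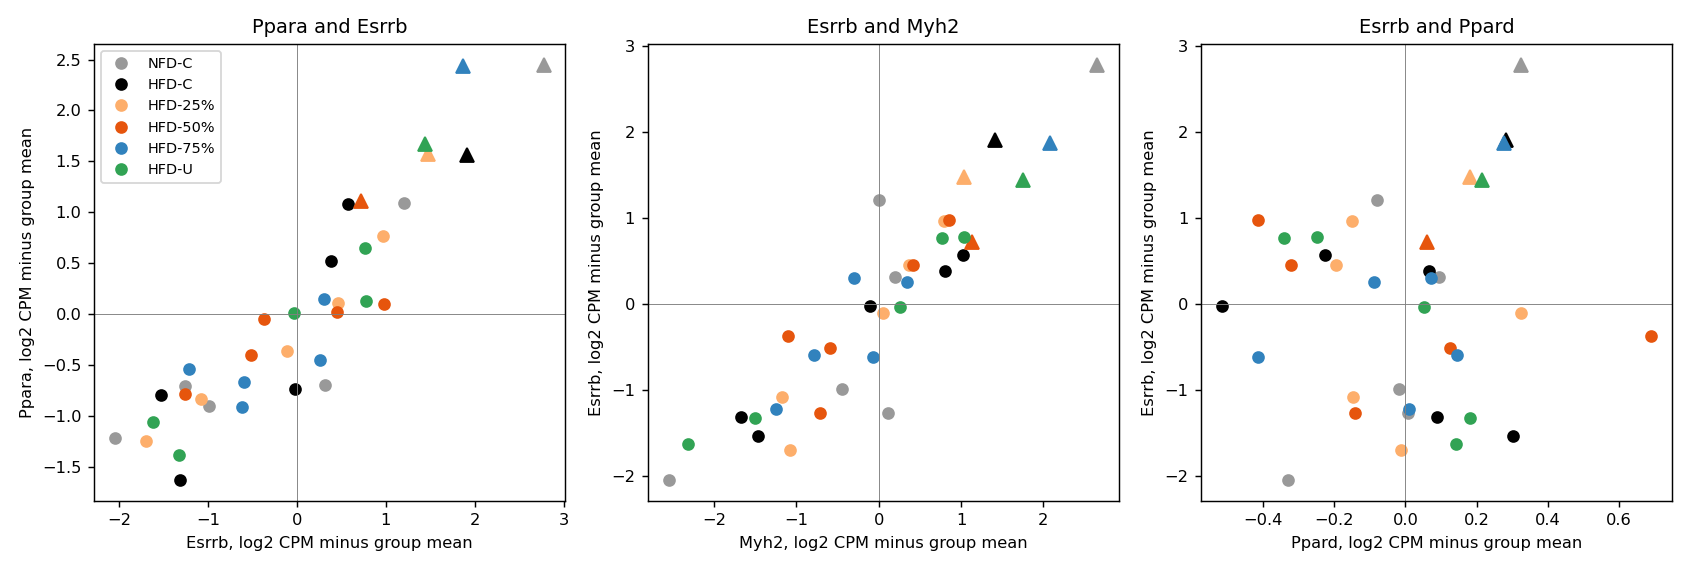
Deviation from the group mean (log2 CPM) of 36 mice for Ppara against Esrrb, Esrrb against Myh2 and Esrrb against Ppard, with a colour per group and triangles for mice numbered 1. Points follow a line in the first and second panels (r = 0.92 in both) and none in the third (r = 0.09).

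The genes most like each regulator over the 36 mice, by Spearman's rho of the same deviations, are given as a description with no test. For Perm1 they were Hadha, an enzyme of fatty acid oxidation, Oxct1, an enzyme of ketone body use, and Tmem65, each with rho = 0.96. For Esrrb they were Dgat2 (0.97), which makes triglyceride, Bdh1 (0.96), of ketone body use, and Lmcd1 (0.95). Lmcd1 (0.94) also led for Esrrg, before Atp1b1 and Pank1 (0.93 each), and Ppara had Esrrb, Fgf1 (0.93 each) and Dgat2 (0.92). Ppargc1b was most like Acsl1 and Perm1 (0.80 each) and Ank2 (0.79), and Esrra was most like Inppl1 (0.88), Acads and Rtn4ip1 (0.87 each). Ppargc1a had Tmem63b (0.81), Crybg3 and Vps13a (0.79 each), and Tfam had Hmgcs1 (0.76), Ogdh (0.74) and Gfm1 (0.73). For Ppard they were Rapgef1 (0.80), Phf2 and Filip1 (0.78 each). Nrf1 reached no more than 0.60, with Eif3j1, before Ptpn2 (0.59) and Slc12a2 (0.58).

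Other genes of the pathway were read from 4 lists, of partners and cofactors, PGC-1 and ERR targets, PPAR targets, and proteins that copy and transcribe mitochondrial DNA, and from the genes that mitochondrial DNA encodes. The PPAR targets had higher means in HFD-50%, where the log2 fold changes of Ppara and Ppard themselves were 0.09 and 0.08 (adjusted p = 0.966 and 0.917). Under other settings that of Ppara ran from -0.03 to 1.29 and that of Ppard from 0.06 to 0.24, so the value of Ppara depends on the setting. In HFD-50% 13 of 34 tested PPAR targets were higher and 0 lower at the unadjusted p, with a median log2 fold change of 0.42 beside 0.01 over all genes. In the main edgeR fit 0 passed adjustment. DESeq2 called 6, with 14 higher without adjustment, where 11.5% of all genes passed. With the mouse number as a block edgeR called 2, with 16 higher without adjustment, where 14.1% of all genes passed. In HFD-75% 7 of 33 were higher and 0 lower, with a median of 0.26, beside 2 and 0 for the 25% group and 1 and 0 for HFD-U. Against the backgrounds given above, the first 2 shares are larger and the last 2 are not. Plin4, which coats lipid droplets, had 868 ± 188 CPM in HFD-50% and 485 ± 84.9 CPM in HFD-C (SD, n = 6), a log2 fold change of 0.84 (adjusted p = 0.111). Angptl4, an inhibitor of lipoprotein lipase, had 24.2 ± 12.5 and 7.06 ± 4.43 CPM, a log2 fold change of 1.79 (adjusted p = 0.121). Among low-share libraries 13 of 34 were again higher and 0 lower in HFD-50%, where 9.46% of all genes passed. In HFD-25%, HFD-75% and HFD-U, 3, 7 and 2 of 33 were higher there and 0 lower, beside 11.6, 8.99 and 11.8% of all genes. The low-share medians were 0.50, 0.55, 0.47 and 0.32 in order of distance.

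Against HFD-U, 9 of 34 PPAR targets were higher in HFD-50% and 0 lower. Angptl4 rose, by a log2 fold change of 2.22 (adjusted p = 0.0106), and was with edgeR the 1 gene of the 4 lists past adjustment there, where DESeq2 called 2 PPAR targets and 1 partner. Any difference among the 6 groups passed adjustment for 4 of 34 PPAR targets and 2 of 38 partners. Against HFD-U, Rxrg, a retinoid X receptor, had a log2 fold change of -0.51 and the coactivator Ncoa1 of -0.36 (adjusted p = 0.336 and 0.377). In NFD-C, 2 of 33 PPAR targets were higher than in HFD-C and 6 lower, with a median of -0.30. Fabp3, a fatty acid carrier of muscle, had 364 ± 215 CPM against 857 ± 459 CPM (log2 fold change -1.22) and Ech1, of fatty acid oxidation, 183 ± 43.6 against 283 ± 97.1 CPM (-0.62), while Ucp3, a mitochondrial carrier, was higher (0.58), as was the corepressor Hdac4 of the partners (0.34). All 4 had an adjusted p of 1. In the 24 running mice against HFD-C, 6 of 33 were higher and 0 lower, with a median of 0.25. Among low-share libraries 3 of 34 were higher and 0 lower, with a median of 0.50, where 13.4% of all genes passed. Pnpla2, which releases fatty acids from triglyceride, had 318 ± 82.1 against 225 ± 48.5 CPM (adjusted p = 0.238).

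The PGC-1 and ERR targets, which are mostly respiratory chain and citrate cycle genes, had shares below those of all genes. Of 38 tested, 1, 0, 1 and 1 were higher in order of running distance, and 0 were lower in each group. Kcng4, a potassium channel subunit, had 44.9 ± 12.2 CPM in HFD-25% and 48.6 ± 15.9 CPM in HFD-U, against 32.6 ± 5.79 CPM in HFD-C (log2 fold change 0.46 and 0.57, adjusted p = 0.591 and 0.71). Of the mitochondrial DNA machinery 0, 1, 0 and 1 of 21 were higher, among them Tfb1m, an rRNA methyltransferase of mitochondria, in HFD-U (7.19 ± 1.19 against 5.27 ± 0.917 CPM, adjusted p = 0.766). Of the 13 genes that mitochondrial DNA encodes, 1, 0, 0 and 0 were higher and 0, 1, 0 and 2 lower.

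Of 38 partners tested, 3 were lower than HFD-C in each running group at the unadjusted p, and 1, 3, 2 and 1 were higher in order of distance, beside the 6.98, 10.7, 5.47 and 5.46% of all genes. Thra, a thyroid hormone receptor, had 53.3 ± 5.43 CPM in HFD-C and 44.2 ± 4.72 CPM in the 24 running mice, a log2 fold change of -0.27 (adjusted p = 0.112). Among low-share libraries the counts of partners against HFD-C turned, to 6 higher and 1 lower for all running mice (13.4% of all genes), from 2 higher and 4 lower (9.27%). None of these passed adjustment in the main or the low-share edgeR fits. In all running mice 2 partners did with DESeq2. With edgeR, 2 did with the mouse number as a block and 1 among mice numbered 2 to 6. Lpin1, a coactivator of PGC-1α, was higher in HFD-75% (423 ± 87.3 against 282 ± 52.1 CPM, adjusted p = 0.397). Nr4a3, an orphan receptor induced by exercise, was lower in HFD-25%, with 1.52 ± 0.514 against 5.21 ± 3.73 CPM (adjusted p = 0.332), and Hdac9 in HFD-75%, with 2.10 ± 0.817 against 4.36 ± 1.91 CPM (adjusted p = 0.615). Crebbp, an acetyltransferase, had 30.9 ± 3.24 CPM in HFD-U against 38.4 ± 5.04 CPM (adjusted p = 0.765).

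**Figure D5:**
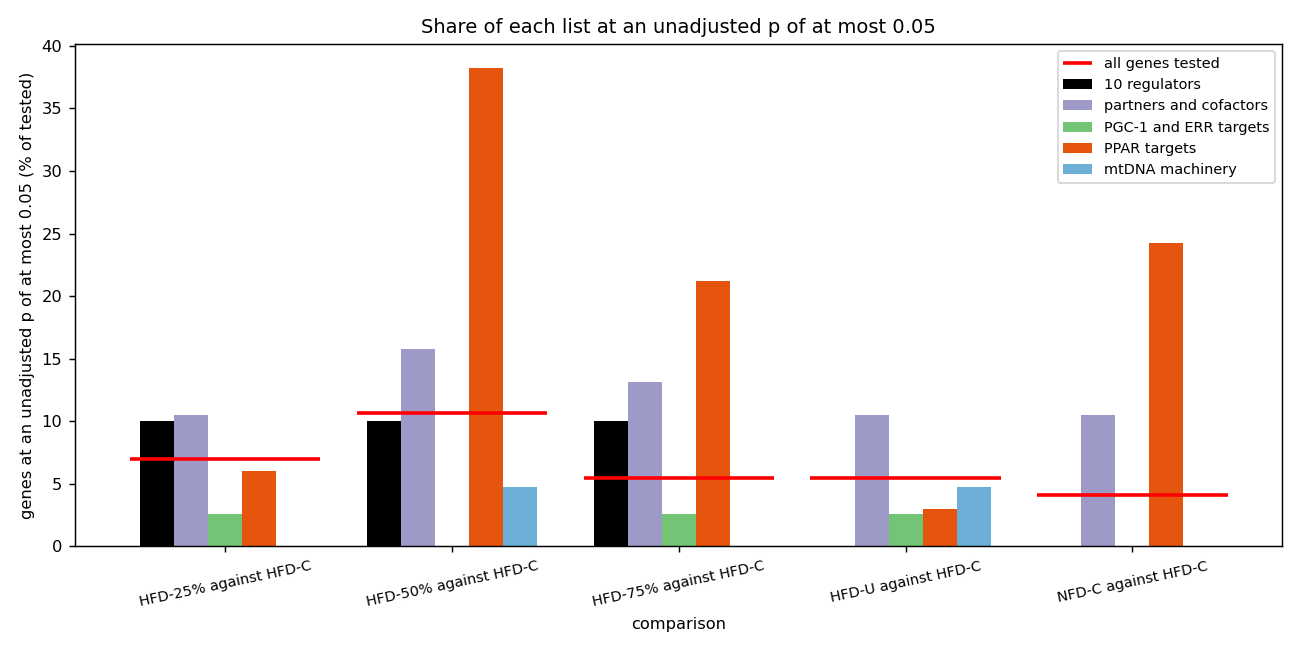
Percent of tested genes past the unadjusted threshold of 0.05 in either direction, for the 10 regulators and 4 pathway lists in 5 comparisons with HFD-C, with red lines for all genes tested. PPAR targets stand above the line in HFD-50% (13 of 34), HFD-75% (7 of 33) and NFD-C (8 of 33), and the regulators have 1 or 0 of 10 in each comparison.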

How the data were processed

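Poly(A)-selected libraries were made from gastrocnemius RNA, 1 per mouse. The authors deposited raw counts per gene from featureCounts (1.5.0-p3) after alignment with HISAT2 (2.0.5), as given in the paper and the submitters' processing notes. Those notes name mm10, but the chromosome sequences beside the counts are those of GRCm39. Features without a gene name (562, with 0.262% of counts) were kept.

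The counts were tested with edgeR 4.0.16 in R 4.3.3 by its quasi-likelihood F-test, with TMM factors and Benjamini-Hochberg adjustment over the genes of a fit, which were those whose mean count reached 25. Each pair of groups was fitted alone. DESeq2 1.42.0 was an alternative. CPM use TMM-scaled library sizes, and log2 CPM a prior count of 1. Correlations used numpy and scipy. The tests were tried on simulated data. Between 9 and 9951 reads lay behind the value of a regulator in a library, which limits its precision.

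The regulators and lists were chosen with earlier results of these data known. All 10 regulators were named, and of the lists the 2 genes with the smallest unadjusted p in each direction per comparison with HFD-C and in HFD-50% against HFD-U, plus the 3 genes of highest rho with each regulator. A list gene that this rule names is not reported here. Nothing states that mice came from separate cages. Mice share the numbers 1 to 6 between groups, without a stated meaning. In HFD-U and HFD-C all 6 same-numbered pairs deviated together (r from 0.12 to 0.51), and in the other comparisons 1 to 5 of 6 did. Alternatives were other factors and filters, the mouse number as a block, covariates, subsets of libraries, and each mouse left out. Those with HFD-50% replicate 4 left out, slow fibre markers or Myh2 removed from the correlations, and the list counts under other settings were chosen after seeing the data. So was the set of 6 correlated regulators.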

Additional observations from a re-analysis of the deposited data

Results flagged for a closer look

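For each regulator and group, the highest and the lowest of 6 mice were compared with the rest, and a mouse was taken as far from the others where its gap to the nearest one exceeded 0.625 of the range of the group (Dixon's 95% value). Of 60 sets of a gene and a group, 16 held such a mouse, and the sets share mice. The chance rate of about 1 in 20 holds for normally distributed values. CPM are skewed toward high values for several of these genes, and the rule was not run over all genes, so 16 of 60 has no background beside it. In 15 of the 16 sets the far mouse was the one numbered 1, as the highest. In HFD-75% that mouse had 14 CPM of Ppargc1b (others 3.08 to 7.17), 150 CPM of Esrra (78.8 to 96.5), 20.9 CPM of Esrrb (2.40 to 7.01), 63.5 CPM of Esrrg (10.3 to 26.2), 80.1 CPM of Ppara (7.83 to 16.3) and 368 CPM of Perm1 (109 to 162). In NFD-C it had 55.0 CPM of Ppargc1a (26.8 to 34.0), 14.5 CPM of Esrrb (0.458 to 4.85), 78.2 CPM of Esrrg (5.80 to 21.0) and 51.8 CPM of Ppara (4.02 to 20.1). In HFD-C it had 16.9 CPM of Esrrb (1.51 to 6.64), 109 CPM of Esrrg (7.23 to 36.4) and 352 CPM of Perm1 (86.3 to 185). It also had 137 CPM of Esrra in HFD-25% (71.7 to 96.0) and 38.2 CPM of Ppara in HFD-50% (10.2 to 18.9). The remaining one was HFD-50% replicate 4, the lowest of its group for Esrra with 31.9 CPM (89.6 to 111).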

How the results depend on the processing

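The count of regulators past an adjusted p of 0.05 was 0 in all 15 tests and stayed 0 with DESeq2, without a minimum count, with RLE factors, with covariates, in subsets of libraries and in every fit without 1 mouse (0 to 0), except that the replicate block by mouse number gave 1 in the dose response with HFD-C, Ppargc1b with an adjusted p of 0.0479. The labels give same-numbered mice nothing but the number, though mice numbered 1 correlated between groups in all 11 comparisons (r of 0.316 to 0.571). The block changed the adjusted call of no other regulator, and among the list genes it called 2 PPAR targets in HFD-50% and 2 partners in all running mice, where 0 were called without it. DESeq2 also called 1 partner in HFD-25% and 1 PPAR target each in HFD-75% and all running mice. Adjusted calls with the block, with DESeq2 or among mice numbered 2 to 6 are given without a share over all genes. The count of correlated pairs, 29, was 16 among mice numbered 2 to 6, 15 with Myh2 removed and 28 without HFD-50% replicate 4. Ppargc1b turned in direction with the ribosomal RNA-linked share as a covariate, to 0.22, 0.08 and 0.47 in the 25%, 75% and unrestricted groups, and among low-share libraries, to 0.06 in HFD-25%, 0.26 in HFD-U and 0.02 in all running mice. Esrrg in all running mice turned to 0.42 and 0.40 under the same settings. The cause was not tested. With each mouse left out, Ppargc1b ranged between -1.46 and -0.85 in HFD-50%, between -1.25 and -0.56 in HFD-25% and between -1.54 and -0.68 in HFD-75%, Tfam from -0.25 to -0.16 against HFD-75% and from -0.26 to -0.18 against HFD-U, and Ppard from 0.24 to 0.37. Of 12 such fits each, 8 and 8 for Tfam, 5 for Ppard and, for Ppargc1b in order of distance, 6, 0 and 4 had an unadjusted p over 0.05. NFD-C has no library with a low share, so that alternative was not run there. Of 140 other values of a regulator in a test, recomputed 3505 times, 45 passed the unadjusted threshold and 0 the adjusted one. The PPAR targets in NFD-C, 2 higher and 6 lower, were 1 and 14 with the ribosomal RNA-linked share as a covariate. Of all genes, 4.12% and 7.05% were past the unadjusted threshold in these fits. Only HFD-C replicates 5 and 6 had a low share in that comparison. Ranking by CPM moved 6 genes.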
